A study of Mus musculus with 4 samples.

Results

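The genes studied here encode 5 digestive proteases of the pancreas: the elastases Cela1, Cela2a and Cela3b and the carboxypeptidases Cpa1 and Cpb1. They were found by their symbols among the 31053 genes of the deposited count tables, and all 5 were present in each library. Single-cell RNA was measured in the pancreas of wild-type C57BL/6 mice that had received saline or caerulein, a peptide that acts on the cholecystokinin receptor and is used to set off acute pancreatitis. S2D (saline) and C2D (caerulein) had 2 days of recovery, and S6W (saline) and C6W (caerulein) had 6 weeks. The labels place C2D and C6W under pancreatitis and S2D and S6W under no earlier inflammation. All 4 suspensions were sorted for cells that excluded the dye DAPI, and age, sex, dose and the number of mice per library are not given in the sources used here. Each group was 1 library, so no difference could be set against the spread between mice. No test was made, and all intervals (exact, 95%) cover counting error only.

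Acinar cells make these proteases as inactive proenzymes, pack them into zymogen granules and secrete them toward the intestine, where trypsin cleaves them into active enzymes. The elastases are serine proteases that cut proteins within the chain, and the carboxypeptidases are zinc enzymes that take single residues off the C-terminal end. Cpa1 prefers aromatic and aliphatic residues, and Cpb1 prefers the basic residues arginine and lysine. Their transcripts are among the most abundant of the acinar cell, so they also leak from broken acinar cells into the suspension and are captured with other cells as free RNA. PTF1, a transcription factor complex that includes bHLH proteins and binds a pair of DNA boxes, is a known activator of acinar enzyme genes.

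The 5 genes lie on 4 chromosomes (GRCm38, GENCODE vM21). Cela1 is at chr15:100674421-100687921 on the minus strand, Cela2a at chr4:141814962-141826160 on the minus strand, Cela3b at chr4:137420999-137430540 on the minus strand, Cpa1 at chr6:30639218-30645363 on the plus strand and Cpb1 at chr3:20248264-20275733 on the minus strand. The 3 elastase transcripts were 64.4% to 67.1% identical in pairwise alignments of their aligned bases, and Cpa1 and Cpb1 were 67.9% identical. Cela3b has a close copy beside it, Cela3a (chr4:137401554-137409791), whose transcript was 94.7% identical over 916 aligned bases. The annotated gene Ctrc (chr4:141814962-141846359, minus strand) covers the whole of Cela2a and shares its 3' boundary. How the authors' counting treated reads that fit both members of these 2 pairs is not given in the sources used here, so counts of Cela3b against Cela3a and of Cela2a against Ctrc are uncertain to that extent.

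The sequences upstream of the 5 start sites are shown because the genes did not keep their proportions to each other 2 days after caerulein. They are the 250 bases before each RefSeq start site (GRCm38.p6), written 5' to 3' on the strand of the gene. For Cela1, Cela2a and Cela3b the bases that GENCODE already counts as transcribed (1, 155 and 20) are left out of the print. The regions printed are chr15:100687922-100688170 for Cela1, chr4:141826161-141826255 for Cela2a and chr4:137430541-137430770 for Cela3b, all on the minus strand, chr6:30638968-30639217 on the plus strand for Cpa1 and chr3:20275734-20275983 on the minus strand for Cpb1. Capitals mark CACCTG, an E-box of the kind bound by bHLH factors, and TGGGAA, the other box of the PTF1 element, each on either strand.
Cela1: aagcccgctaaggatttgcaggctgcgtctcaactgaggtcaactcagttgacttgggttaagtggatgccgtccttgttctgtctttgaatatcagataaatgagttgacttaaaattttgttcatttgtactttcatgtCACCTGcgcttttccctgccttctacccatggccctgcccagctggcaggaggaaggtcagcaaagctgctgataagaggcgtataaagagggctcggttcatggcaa
Cela2a: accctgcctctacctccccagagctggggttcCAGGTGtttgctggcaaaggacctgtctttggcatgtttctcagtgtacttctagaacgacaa
Cela3b: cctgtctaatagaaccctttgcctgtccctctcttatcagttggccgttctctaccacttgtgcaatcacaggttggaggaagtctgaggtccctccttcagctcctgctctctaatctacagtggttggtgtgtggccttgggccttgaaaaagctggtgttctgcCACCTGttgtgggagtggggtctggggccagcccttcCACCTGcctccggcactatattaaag
Cpa1: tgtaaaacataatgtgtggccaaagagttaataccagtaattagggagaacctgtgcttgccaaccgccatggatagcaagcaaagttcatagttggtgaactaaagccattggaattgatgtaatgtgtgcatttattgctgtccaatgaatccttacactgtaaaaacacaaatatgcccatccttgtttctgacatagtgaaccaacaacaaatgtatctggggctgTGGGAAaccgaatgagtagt
Cpb1: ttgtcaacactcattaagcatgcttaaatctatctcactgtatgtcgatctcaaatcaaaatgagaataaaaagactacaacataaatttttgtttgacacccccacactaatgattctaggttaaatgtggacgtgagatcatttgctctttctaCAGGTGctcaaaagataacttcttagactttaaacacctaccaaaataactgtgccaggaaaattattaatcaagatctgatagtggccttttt

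Motifs were counted in the whole 250 bases. CACCTG or its reverse complement was found upstream of 4 of the 5 genes, all but Cpa1, against 17.2% of 32851 RefSeq windows of the same length. Its first base was at -109 in Cela1, at -218 in Cela2a, at -94 in Cpb1 and at -83 and -46 in Cela3b, counted from the start site. TGGGAA or its reverse complement was found upstream of Cela2a (first base at -85, in the stretch not printed) and Cpa1 (at -20), against 21.6% of windows. The general E-box CANNTG, which includes every CACCTG match, occurred in all 5 windows and in 66.2% of all windows. These matches describe letters only. Cela1 and Cela2a, which had the lowest ratios at 2 days, shared CACCTG with Cela3b and Cpb1. An exact TGGGAA match was found for Cela2a but not for Cela1. Only exact matches were counted. Soon after CACCTG, Cela1 holds ttccct, which differs in its last letter from the reverse complement of TGGGAA. The spacing between boxes was not examined, so single matches are not read as PTF1 elements.

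Acinar-like cells were picked from clusters built without the 5 genes and named from 18 other acinar markers, all of which had UMIs in the class in every library. The class held 424 of 3308 cells in S2D, 527 of 4637 in C2D, 443 of 2017 in S6W and 357 of 2741 in C6W. Cluster 29 held all acinar-like cells of S2D and all but 1 of those of S6W and C6W, and cluster 4 held 523 of the 527 cells of C2D, so each 2-day value compares different clusters. The leading genes of cluster 4 were trypsinogen and Reg genes, none of them on the marker list. The median depth of the class was 6624.5 UMIs in S2D and 9516 in C2D, and 7743 in S6W against 6842 in C6W, and the median cell had 448, 1095, 519 and 536 genes. The libraries held between 29145886 and 71547194 UMIs in 2623 to 5433 barcodes, and no pair of libraries shared more than 10 barcodes among the cells analysed. Other cells' markers also differed in the class: the 14 macrophage markers summed to 669 counts per 1000000 UMIs (CPM) in C2D with none at 0, against 25.2 to 52.9 in the other libraries, where Fcgr1 was at 0 in each. The 16 ductal markers summed to 3239 CPM in C2D with none at 0, against 233 to 385, with Cftr at 0 in the other libraries. The 6 erythroid markers summed to 956 CPM in S6W and to 0 to 17.5 elsewhere. Their part in the results below was not tested.

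In saline libraries the 5 genes were among the main transcripts of the acinar-like cell. A UMI of this 3' assay stands for 1 captured transcript end, so UMIs per cell do not grow with gene length. How well each gene was captured was not measured, and the counts of Cela3b and Cela2a are uncertain as stated above. Orders of the genes by level are therefore approximate. The mean Cela1 level was 848 UMIs per acinar-like cell (845 to 851) in S2D and 107 in C2D, and 1207 in S6W against 576 in C6W. Its interquartile range over cells was 268.5 to 678 in S2D and 23.0 to 102 in C2D, which did not overlap, and 323.5 to 765 in S6W and 246 to 569 in C6W, which did. Cela2a, in the order S2D, C2D, S6W and C6W used from here on, had 1041, 149, 1099 and 545 UMIs per cell, and its interquartile ranges at 2 days, 311 to 906 and 45.0 to 176, were also apart. Cela3b, the elastase with the least difference at 2 days, had 541, 283, 790.5 and 486 UMIs per cell, and its quartiles at 2 days overlapped (179 to 484 and 105.5 to 368.5).

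Among the carboxypeptidases, Cpa1 had 634, 268, 821 and 378 UMIs per cell. Cpb1 had 403, 171, 594 and 272, the lowest mean of the 5 genes in each library but C2D. C2D was the lowest library for each gene and S6W the highest. The order of the genes turned over in C2D: it was Cela2a, Cela1, Cpa1, Cela3b, Cpb1 from high to low in S2D and Cela3b, Cpa1, Cpb1, Cela2a, Cela1 in C2D. All neighbours in these orders differed beyond counting error, but no spread between mice was available to set them against. In S2D and S6W the mean lay above the upper quartile for all 5 genes, so the sums below weigh deep cells more than typical ones.

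**Figure D1:**
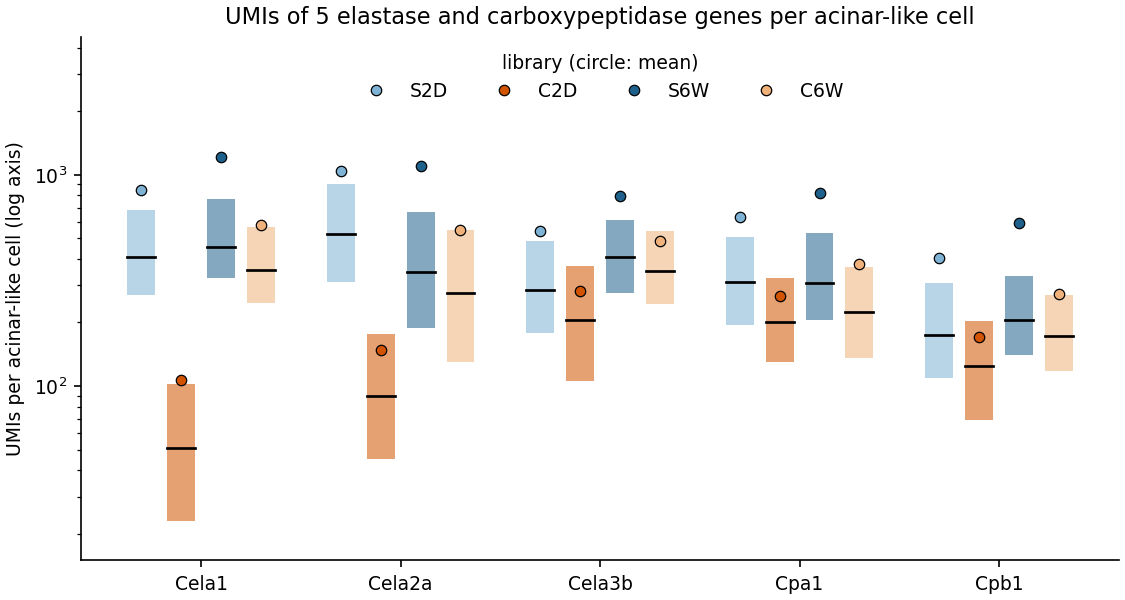
UMIs per acinar-like cell (log axis) of the 5 genes in 4 libraries of 424 (S2D), 527 (C2D), 443 (S6W) and 357 (C6W) cells. Boxes span the quartiles over cells, black lines are medians and circles are means. The C2D box of Cela1 lies below those of all other libraries. That of Cela2a lies below the saline boxes and overlaps C6W, and those of Cela3b, Cpa1 and Cpb1 overlap the other libraries.

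At 2 days all 5 genes were lower in C2D than in S2D, with Cela1 and Cela2a set apart from the other 3. On sums scaled by edgeR's TMM-adjusted totals, the log2 ratio of C2D over S2D was -4.44 for Cela1 (interval -4.45 to -4.42), a 21.6-fold lower level. It was -4.25 for Cela2a (-4.27 to -4.24) and -2.38 for Cela3b (-2.39 to -2.37). Cpa1 was at -2.69 (-2.70 to -2.68) and Cpb1 at -2.68 (-2.69 to -2.67). All 5 of 5 were at least 2-fold lower, against 9.42% of the 2793 genes compared (those with a sum of 100 UMIs or more in the pair), and their median of -2.69 stood beside a median of 0.28 over those genes. Counted from the lowest of the 2793 ratios, Cela1 ranked 7, Cela2a 10, Cpa1 40, Cpb1 42 and Cela3b 55.

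The size of these ratios depended on the scaling. Digestive transcripts made up 88.0% of the class's UMIs in S2D and 59.1% in C2D. Plain CPM raised the median of all genes compared from 0.28 to 1.80 and changed the split of genes at least 2-fold higher and lower from 21.2% and 9.42% to 80.0% and 1.61%. The 5 ratios by CPM were -2.91 (Cela1), -2.73 (Cela2a), -0.86 (Cela3b), -1.17 (Cpa1) and -1.16 (Cpb1), so that 4 of 5 were at least 2-fold lower. UMIs per cell, which use no totals, gave -2.99, -2.81, -0.94, -1.24 and -1.23 in the same order, again with 4 of 5 at least 2-fold lower, against 1.79% of genes. Each of the 5 scalings put all 5 genes below 0 at 2 days.

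**Figure D2:**
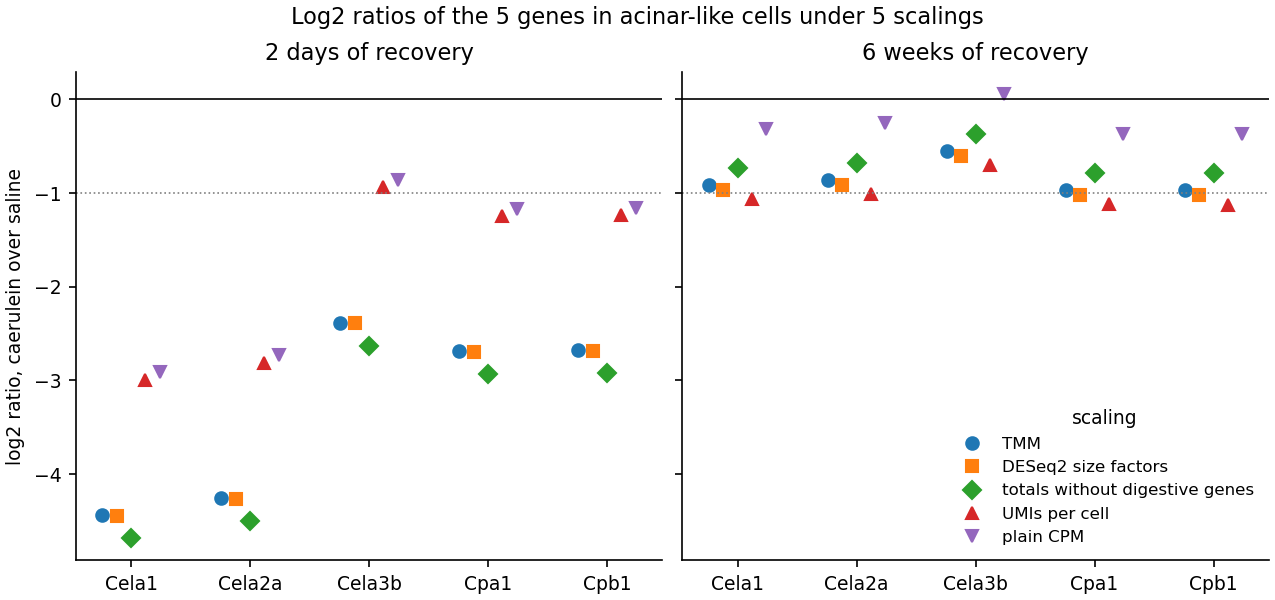
Log2 ratio of caerulein over saline in acinar-like cells at 2 days (left) and 6 weeks (right) for each gene, with 1 symbol per scaling. The dotted line marks a 2-fold lower level. At 2 days every value is below 0 and Cela1 and Cela2a lie lowest under each scaling. At 6 weeks Cela3b by plain CPM (0.05) is the only value above 0.

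Ratios between the genes within a library need no scaling. Cela1 stood at 1.34 UMIs per UMI of Cpa1 in S2D and at 0.399 in C2D, a log2 difference of -1.75 (-1.76 to -1.73). Against Cela3b, the other elastase, Cela1 went from 1.57 to 0.378 (-2.05, interval -2.07 to -2.04), and Cela2a from 1.92 to 0.526 (-1.87, interval -1.89 to -1.86). By contrast Cela1 and Cela2a kept nearly the same proportion, 0.814 in S2D and 0.718 in C2D (-0.18, interval -0.20 to -0.16). The carboxypeptidases were the closest pair: Cpa1 over Cpb1 was 1.57 in S2D and 1.56 in C2D, a difference of -0.01 whose interval (-0.03 to 0.00) included 0. The saline libraries also differed from each other: over the 10 pairs the differences of S6W against S2D ran from -0.48 (Cela2a over Cpb1) to 0.43 (Cela1 over Cela2a). The 6 ratios of Cela1 or Cela2a to the other 3 genes, between -1.56 and -2.05 at 2 days, lay outside that range, and the other 4 lay within it.

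The make-up of the 5 genes' UMIs showed the same values as shares. Cela1 held 24.5%, 10.9%, 26.8% and 25.5% of them in the 4 libraries. Cela2a held 30.0%, 15.2%, 24.4% and 24.1%. Cela3b had the reverse order, with 15.6% in S2D and 28.9% in C2D, and 17.5% in S6W against 21.5% in C6W. Cpa1 had 18.3%, 27.4%, 18.2% and 16.7%, and Cpb1 had 11.6%, 17.6%, 13.2% and 12.1%. C2D thus stood outside the range of the other 3 libraries for every gene, low for Cela1 and Cela2a and high for the rest.

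The 5 genes together also took a smaller part of the digestive transcripts, a list of 43 genes in the files (enzymes, granule proteins, inhibitors, Reg1 and Tff2) that includes them. They made up 30.4%, 13.5%, 29.1% and 25.7% of digestive UMIs. Over single cells the median was 31.2% in S2D with 80% of cells between 21.6% and 38.8%, and 12.9% in C2D with 80% of cells between 9.07% and 17.7%, so these ranges did not overlap. In the same libraries the trypsinogens and chymotrypsinogens held 43.1%, 61.8%, 42.3% and 44.1%. Ctrb1, a chymotrypsinogen, had 15.3% in S2D and 31.5% in C2D, and Try5, a trypsinogen, had 3.11% and 9.97%. Other abundant members of that list were lower in C2D: Prss2 had 8.05% and 7.79%, and Try4 5.84% and 4.88%. 2210010C04Rik had 5.97% and 3.22%, and Ctrl 4.07% and 1.56%. Reg1, which is also among the 43 genes, had 1.27% and 8.65%. Reads of near-identical trypsinogen copies may be split between them.

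**Figure D3:**
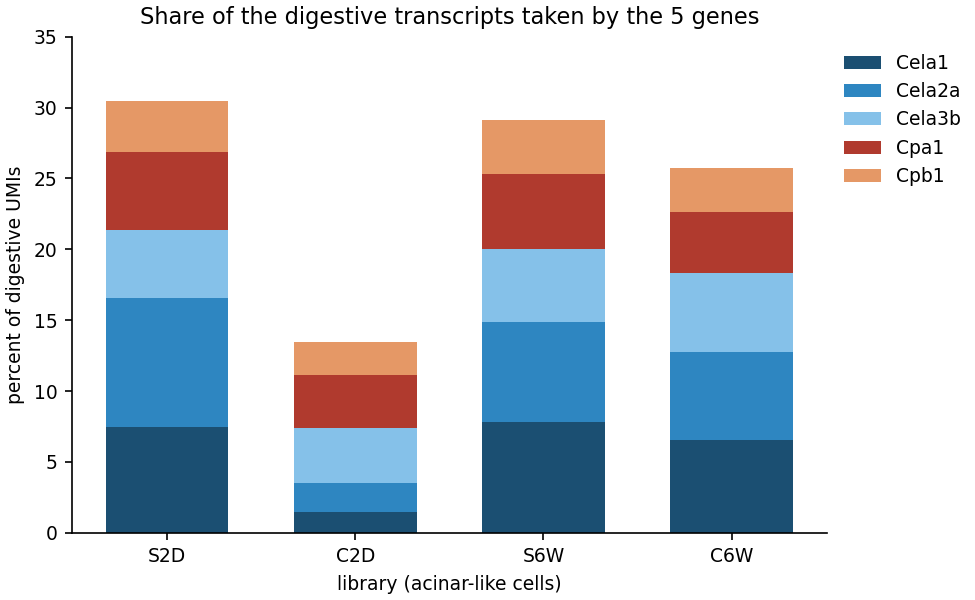
Percent of the digestive UMIs of acinar-like cells (vertical axis) taken by each of the 5 genes, stacked, in each library. The stack reaches 30.4% in S2D and 13.5% in C2D, and 29.1% in S6W against 25.7% in C6W, and the segments of Cela1 and Cela2a are the ones most reduced in C2D.

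Some relatives of the 5 genes had few UMIs. Ctrc, chymotrypsin C, had 3.81, 0.710, 4.03 and 2.42 UMIs per acinar-like cell and a log2 ratio by TMM of -3.87 at 2 days. Cela3a had 22, 23, 62 and 32 UMIs over all acinar-like cells and a ratio of -1.69 (-2.60 to -0.78), which by plain CPM was -0.17. In acinar-like cells Cpa3, a mast cell protease, had at most 4 UMIs in a library, Cpb2 had 1 UMI in C6W, and Cpa4, Cpa5, Cpa6 and Elane had none.

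Other lists were uneven at 2 days, when the median over all genes with 20 UMIs or more in the pair was 0.20. Of the genes compared, which needed 100 UMIs in the pair, 21.2% were at least 2-fold higher and 9.42% lower by TMM. By plain CPM 80.0% were higher and 1.61% lower. Each list's counts below stand beside those shares, but list genes needed only 20 UMIs, so the sets differ in their minimum count. All 6 lipase and colipase genes were at least 2-fold lower by TMM (median -2.85), led by Pnlip, pancreatic lipase, at -5.21, Cel at -3.40 and Pla2g1b at -3.22. All 6 measured amylase and nuclease genes were lower (median -3.50), among them Amy2a3 at -4.28, Amy2a5 at -4.24 and Amy2a4 at -3.52. Of 14 measured trypsinogens and chymotrypsinogens, 5 were higher and 6 lower (median -0.60), with Gm2663, a trypsinogen-like gene, at 1 UMI in S2D and 41626 in C2D, 1810009J06Rik at 0 and 15991, and Prss1 at 20 and 3384. Plain CPM gave 3 lower of 6 lipases, 5 lower of 6 amylases and nucleases, and 7 higher and 2 lower of 14 trypsinogens and chymotrypsinogens. Among 19 zymogen granule and secretory genes 2 were higher and 6 lower (median -0.84), led by Pdia2 at -4.38, Gp2 at -3.87 and Zg16 at -3.69, and by plain CPM 9 were higher and 5 lower. Of 3 measured protease inhibitors 2 were lower, Serpini2 at -2.62 and Serping1 at -2.32, with Spink1, the trypsin inhibitor, at -0.19, and by plain CPM 1 was higher and 1 lower. None of 13 genes listed as acinar transcription factors, including the RNA-binding protein gene Zfp36l1, passed 2-fold in either direction by TMM (median 0.38). By plain CPM 8 of them were higher, and with totals that leave out digestive genes 4 were lower. By TMM the values furthest from 0 were those of Gata4 at 0.95, Bhlha15 at -0.88 and Nr5a2 at 0.83. Of 16 duct and metaplasia genes 12 were higher and 2 lower (median 1.99), with Anxa3 at 1 UMI in S2D and 185 in C2D, Krt7 at 2 and 145, and Cldn4 at 6 and 415. By plain CPM 14 of these 16 were higher and 1 lower, on a scale where 80.0% of all genes compared were higher. Of 16 dissociation genes, induced by tissue handling, 5 were lower and none higher (median -0.54), with Hspa1b at -2.01, Jun at -1.49 and Fosb at -1.47, and by plain CPM 8 were higher and none lower. Those CPM counts of 8 higher of 16, 8 of 13 and 9 of 19 are smaller shares than the 80.0% of all genes compared.

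Each gene's nearest neighbours by pattern were found by the Euclidean distance of 3 log2 ratios (C2D, S6W and C6W, each over S2D) among 2629 other genes. For Cela1 they were Gal (distance 0.23), Fxyd1 (0.35), Amy2a5 (0.52), Tmed11 (0.58) and Gp2 (0.64). For Cela2a they were Amy2a5 (0.26), Ctrc (0.48), Gal (0.64), Slc39a5 (0.77) and Amy2a4 (0.77). Ctrc overlaps Cela2a and the counts of the pair are uncertain, as stated above, so this likeness may not be between separate transcripts. For Cela3b they were Aqp12 (0.07), Klk1b5 (0.23), Klk1 (0.26), Serpini2 (0.34) and Pnliprp2 (0.34). For Cpa1 they were Ero1lb (0.14), Qsox1 (0.23), Amy1 (0.23), Hgfac (0.34) and Try4 (0.36), and for Cpb1 Amy1 (0.14), Ero1lb (0.24), Prdx4 (0.30), Hgfac (0.31) and Pnliprp2 (0.35). Cela1 and Cela2a thus shared Gal and Amy2a5, and Cpa1 and Cpb1 shared Ero1lb, Amy1 and Hgfac. The distances rest on 4 libraries that share S2D as their reference.

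At 6 weeks the 5 genes differed far less. The log2 ratio of C6W over S6W by TMM was -0.91 for Cela1 (-0.92 to -0.90), -0.86 for Cela2a (-0.86 to -0.85), -0.55 for Cela3b (-0.55 to -0.54), -0.96 for Cpa1 (-0.97 to -0.96) and -0.97 for Cpb1 (-0.98 to -0.96). None of the 5 was at least 2-fold lower, against 1.55% of 1420 genes compared (2.04% were higher), and the median of -0.91 stood beside -0.24 over those genes. Counted from the lowest of the 1420 ratios, Cpb1 ranked 29, Cpa1 31, Cela1 46, Cela2a 59 and Cela3b 289, so most of the 5 lay near the low end. With DESeq2's size factors 2 of 5 passed 2-fold, against 2.39% of genes, and by UMIs per cell 4 of 5 did, against 4.44%. By plain CPM the ratios were -0.31, -0.26, 0.05, -0.36 and -0.37, so the direction of Cela3b turned and none was 2-fold lower, against 0.282% of genes lower and 7.61% higher. The saline libraries, S6W over S2D, differed by 0.26, -0.17, 0.30, 0.13 and 0.31 by TMM in the same gene order. With S2D in place of S6W as the control, the ratios of C6W were -0.61, -0.99, -0.21, -0.80 and -0.62.

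The ratios between the genes in C6W depended on the saline library they were set against. Cela1 over Cpa1 was 1.47 in S6W and 1.53 in C6W (0.05, interval 0.04 to 0.07), and Cpa1 over Cpb1 was 1.38 and 1.39 (0.00, interval -0.01 to 0.02). Cela3b over Cpa1 was 0.963 in S6W and 1.29 in C6W, a difference of 0.42 (0.41 to 0.43), and over Cpb1 the difference was also 0.42. Cela1 and Cela2a over Cela3b differed by -0.36 and -0.31. Against S2D, Cela3b over Cpa1 differed by 0.59, Cela2a over Cela3b by -0.78, Cela1 over Cela2a by 0.38 and Cela2a over Cpb1 by -0.37. The saline libraries differed by 0.17 in the ratio of Cela3b to Cpa1, and their largest difference over all pairs was -0.48.

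At 6 weeks the relatives Ctrc (-0.58) and Cela3a (-0.49) did not pass 2-fold. Of all genes compared, which needed 100 UMIs in the pair, 1.55% were lower and 2.04% higher. List genes needed only 20 UMIs, and the median over all genes with that many was -0.12. List genes with fewer than 100 UMIs, such as Serping1, Cd44, Cldn4, Hspa1b and Hspa1a below, have no counterpart in those shares. Of 6 amylase and nuclease genes 4 were lower (median -1.13), with Amy2a3 at -1.34, Amy2a5 at -1.17 and Amy1 at -1.13, and by plain CPM none was lower. Of 6 lipases 1 was lower, Cel at -1.35, and of 14 trypsinogens and chymotrypsinogens 2 were higher, 1810009J06Rik with 2 UMIs in S6W and 180 in C6W and Gm2663 with 5 and 126. The zymogen granule list had none past 2-fold of 18. Of 3 inhibitors 1 was higher, Serping1 at 1.47 (11 UMIs in S6W and 22 in C6W, interval 0.36 to 2.66). Of 9 genes listed as acinar transcription factors 1 was higher, Zfp36l1 at 1.29, which encodes an RNA-binding protein. Of 11 duct and metaplasia genes 3 were higher, Cd44 at 1.69, Spp1 at 1.59 and Cldn4 at 1.47. Cd44 had 6 UMIs in S6W and 14 in C6W (interval 0.22 to 3.36), and Cldn4 had 7 and 14 (0.06 to 3.02). Spp1 had 94 and 204 (1.23 to 1.95). Of 16 dissociation genes 4 were higher, Hspa1b at 3.09 (7 and 43 UMIs), Hspa1a at 2.22 (19 and 64), Nr4a1 at 1.09 and Fosb at 1.03.

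Single cells of a library also differed in how their digestive transcripts were divided. As a description over cells that share a library, Spearman's rho between the shares of digestive UMIs held by Cela2a and Cpa1 was 0.81 in S2D (424 cells), 0.76 in S6W (443), 0.71 in C6W (357) and 0.07 in C2D (527). In S2D 80% of cells held Cela2a between 3.95% and 14.4% of digestive UMIs, the widest range of the 5 genes there, against 2.31% to 4.22% for Cpb1. In C2D the widest was that of Cela3b, 1.01% to 6.40%, against 0.694% to 3.64% for Cela2a. Cela3b stood opposite the others outside C2D, with rho of -0.37 to -0.51 against the other 4 genes in S2D, -0.29 to -0.48 in S6W and -0.14 to -0.40 in C6W. In C2D the pair of Cela1 and Cela3b had a rho of 0.53 and all other pairs lay between -0.26 and 0.36. Shares of 1 total are tied to each other, so a high share of a gene lowers the rest by construction.

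The shares also differed with the depth of the cell. When the acinar-like cells of each library were split by total UMIs into 4 groups of nearly equal size, Cela2a's share of digestive UMIs went from 11.04% in the shallowest to 8.96% in the deepest group in S2D, but from 6.28% to 7.72% in S6W and from 4.69% to 7.05% in C6W. In C2D it was 1.94% and 2.18%. Cela1 lay between 7.005% and 7.82% in S2D and between 1.18% and 1.61% in C2D over the 4 groups. No depth group of C2D reached the lowest of any other library for Cela1, Cela2a or Cela3b. For Cpa1 the highest of C2D (3.96%) lay above the lowest of C6W (3.73%), and for Cpb1 the highest of C2D (2.92%) lay just above the lowest of C6W (2.90%).

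**Figure D4:**
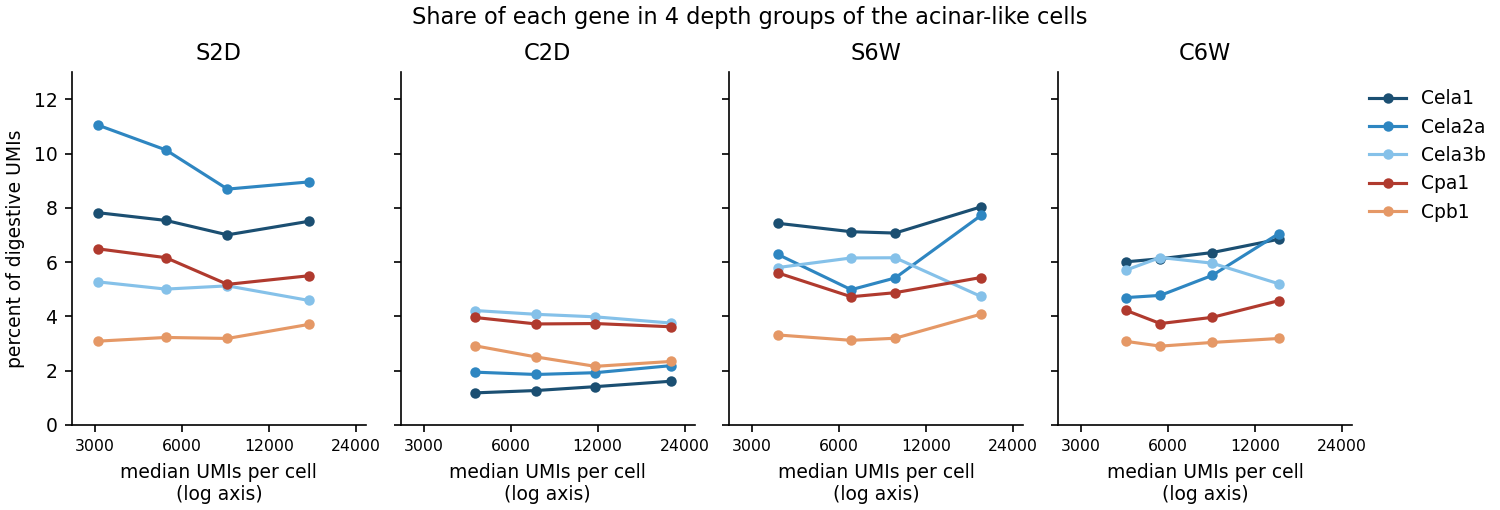
Percent of digestive UMIs held by each gene (vertical axis) in 4 groups of acinar-like cells by depth, plotted at the median UMIs per cell of the group (log axis), in each library. The lines of Cela1 and Cela2a reach at most 2.18% in C2D and are never under 4.69% in the other libraries.

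A separate cluster of 232 C2D cells had both duct and acinar genes among its leaders (Krt8, Krt18, Krt19 and Cldn4 beside Try5 and Gm2663) and was kept out of the acinar-like class. Its digestive transcripts were 21.0% of the UMIs of the median cell, and the 5 genes were 8.84% of its digestive UMIs. Cpa1 had 136 UMIs per cell there, Cela2a 72.5, Cela3b 47.2, Cpb1 42.3 and Cela1 23.9, all below the acinar-like cells of the same library. Cpa1 held 42.3% of the 5 genes' UMIs, against 27.4% in acinar-like cells, Cela2a held 22.5% against 15.2%, and Cela3b 14.6% against 28.9%. Cela1 again had the lowest share, 7.42% against 10.9%. A UMI of Cela1 was found in 69.4% of these cells, against 25.9% of the T- and B-like cells of the library, which do not express it (median depth 7050.5 and 5354 UMIs). With each cell thinned to 1000 UMIs the shares were 39.1% and 3.57%.

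Outside acinar cells the 5 genes were found in every class, as free RNA is. T- and B-like cells as 1 class held 53.2 UMIs of the 5 genes per cell in S2D (949 cells) and 6.00 in C2D (112 cells), and 29.2 in S6W (183 cells) against 24.5 in C6W (378 cells). Of this, Cela1 gave 14.9, 0.348, 9.20 and 7.08 UMIs per cell. Cela2a gave 14.4, 0.920, 5.97 and 5.71, and Cela3b 9.80, 1.46, 6.02 and 4.90. Cpa1 gave 6.30, 2.19, 3.36 and 2.66, and Cpb1 7.75, 1.08, 4.69 and 4.13. C2D was thus lowest for all 5 genes in these cells too, and by most for Cela1. At least 1 UMI of Cela1 was in 100% of T- and B-like cells in S2D and in 25.9% of them in C2D. The mix of the class differed: 767 of the 949 cells of S2D were B-like, and 95 of the 112 cells of C2D were T-like. In these 95 cells the mean lay above the upper quartile for all 5 genes (for Cpa1 2.47 against 1), so a minority of cells carried most of the UMIs.

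The proportions in free RNA followed the acinar-like cells of the same library in part. Cela1 held 28.0%, 5.80%, 31.5% and 28.9% of the 5 genes' UMIs in T- and B-like cells, so it was low in C2D in both places. Cpa1 differed most from the acinar-like cells. Over the classes with at least 50 cells its median share was 12.03% in S2D (9 classes), 12.2% in S6W (6 classes) and 11.7% in C6W (5 classes), below the 16.7% to 18.3% of acinar-like cells, whereas in C2D (7 classes) it was 35.6%, above the 27.4% there. In no class of S6W or C6W did Cpa1 exceed 13.4%, and in no class of C2D was it below 29.8%. Cpb1 went the other way outside C2D, with medians of 14.5% in S2D, 15.3% in S6W and 16.2% in C6W. The acinar-like cells of those libraries had 11.6%, 13.2% and 12.1%. In C2D the Cpb1 median was 17.9%, near the 17.6% of acinar-like cells. The UMIs found in other cells therefore did not hold the 5 genes in exactly the ratio of the acinar-like cells that passed the filters.

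By mean, but not by median, macrophage-like cells of S2D were high. These 82 cells held a mean of 135 UMIs of the 5 genes and 466 digestive UMIs per cell, more than any other class of the 4 libraries but the acinar-like cells and the cells with duct and acinar genes, at a median depth of 7797.5 UMIs. The Cela1 mean there was 34.7 UMIs, above the upper quartile of 19, and the median of 13 was that of T-like cells. For Cpa1 the mean was 24.6, the upper quartile 7 and the median 4, which was also the median of B-like and T-like cells. A minority of the 82 cells thus carried most of these UMIs, and the class's Cpa1 share of 18.2%, near the 18.3% of acinar-like cells, rests on them. In C2D the 2341 macrophage-like cells held a mean of 18.5 UMIs of the 5 genes, again the highest mean with the same exceptions, with 29.8% Cpa1 and 11.3% Cela1. Here too the mean lay above the upper quartile: it was 5.50 for Cpa1 with an upper quartile of 2 and a median of 1, the same median as in ductal-like cells. Blood endothelial-like cells of C2D had the least, 2.41 per cell. Acinar-like cells held between 74.1% (Cpa1 in C2D) and 97.5% (Cpa1 in S6W) of each gene's UMIs among the cells analysed.

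**Figure D5:**
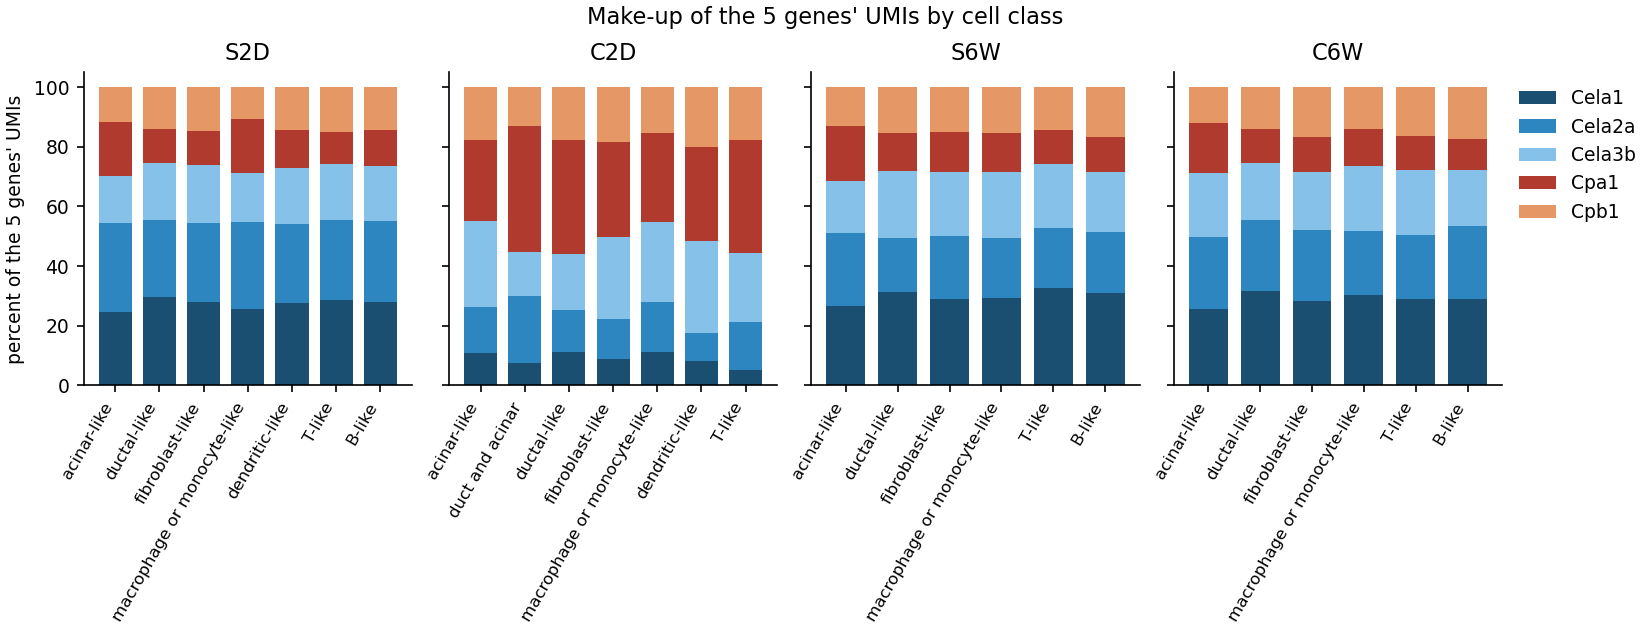
Share of each gene among the 5 genes' UMIs (vertical axis, percent) by cell class in each library, for the classes most often present. In C2D Cela1 has the smallest share in every class drawn, and the Cpa1 segment is longest in the cells with duct and acinar genes (42.3%). In S2D, S6W and C6W the Cpa1 share is largest in acinar-like cells (16.7% to 18.3%).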

How the data were processed

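The authors deposited raw UMI counts per gene and cell barcode for each library, made with Cell Ranger 3.0.2 on mm10, per the submitters' processing notes and the file headers. Cells needed 500 UMIs and 200 genes, with no more than 20% mitochondrial UMIs. Doublets were called per library with Scrublet (scanpy 1.11.5), which marked only 0.408% of cells in C2D, and left out. Cells were clustered together (2000 variable genes, 40 components, Leiden resolution 1) without the 5 genes and named from markers; 28 of 31 clusters were named. UMIs were summed per class and library, scaled by TMM-adjusted totals (edgeR 4.0.16), and log2 ratios had exact conditional binomial intervals. Means per cell had exact Poisson intervals and shares Clopper-Pearson intervals. Genes needed 100 UMIs over both libraries, list members 20, and a library without UMIs was given 3 counts. Named genes were the 5 genes, measured relatives (1 is not reported here), up to 3 per list by absolute ratio and 5 nearest by pattern, leaving out unnamed, ribosomal, mitochondrial, haemoglobin and sex-linked genes in the last 2, except that the listed gene models Gm2663 and 1810009J06Rik were named after their values were seen. Some trypsinogens and chymotrypsinogens, and Reg1, were also named for their shares of digestive UMIs. The genes and lists were chosen with earlier results of these data known. Ratios were tested on simulated data, where a log2 change of -2 was recovered as -1.99 at both times and a change of -1 as -0.97 at 2 days and -1.02 at 6 weeks. Both simulated libraries had the same averaged composition, and only genes outside the digestive list were changed. The simulation therefore did not cover the lower digestive share of C2D, and it says nothing on the scaling of the 5 genes there. Alternatives covered scaling, count minimum, doublets, depth, clustering, free RNA and the 6-week control. DESeq2 1.42.0 gave size factors only.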

Additional observations from a re-analysis of the deposited data

How the results depend on the processing

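With 1 library per group, no result has an error between mice, and the deposited depth limits only counting error. No paired analysis was possible because each group has 1 library and all titles carry the same number. No alternative turned the direction of the median log2 ratio of the 5 genes or of Cela1 over Cpa1, but plain CPM put Cela3b at 0.05 at 6 weeks. The median at 2 days, -2.69, became -1.17 with plain CPM, -2.94 with totals without digestive genes, -1.24 with UMIs per cell, -3.96 with doublets kept (which also took the acinar-like class of C2D from 527 to 753 cells), -2.84 with doublets left out at the expected rate, -2.95 for cells with at least 1000 UMIs, -2.83 with clusters built without digestive genes, -2.24 with free RNA subtracted and -2.13 with cells thinned to 1000 UMIs. It was -3.86 when the cluster of duct and acinar genes counted as acinar-like, an alternative chosen after seeing the data. At 6 weeks the median of -0.91 became -0.31 with plain CPM, -0.73 with totals without digestive genes, -0.96 with DESeq2 size factors, -1.07 with UMIs per cell, -0.85 with doublets kept, -0.87 with doublets left out at the expected rate, -0.90 for cells with at least 1000 UMIs, -0.63 with free RNA subtracted, -0.36 when thinned, -0.84 with the added cluster and -0.62 with S2D as the control. The members at least 2-fold lower at 6 weeks, 0 of 5, became 2 with DESeq2 and 4 with UMIs per cell.

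Genes at least 2-fold higher at 2 days, 591, became 2234 with plain CPM, 2176 with UMIs per cell and 188 with at least 400 UMIs, and genes lower, 263, became 45, 50 and 115. At 6 weeks 29 genes higher became 108 with plain CPM and 4 with at least 400 UMIs, and 22 lower became 4 with plain CPM, 11 with totals without digestive genes, 34 with DESeq2, 63 with UMIs per cell and 10 with at least 400 UMIs. The log2 difference of Cela1 over Cpa1 at 2 days, -1.75, became -1.91 with doublets kept, -1.72 with clusters built without digestive genes, -1.73 with free RNA subtracted and -1.90 with the added cluster, and at 6 weeks 0.05 became 0.19 with S2D as the control.

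The 5 genes' percent of digestive UMIs in S2D, 30.4, became 30.5 with doublets left out at the expected rate, with at least 1000 UMIs, with clusters built without digestive genes and with free RNA subtracted, and 31.2 when thinned. In C2D 13.5 became 12.6 with doublets kept, 13.4 with at least 1000 UMIs, without digestive genes in the clustering and when thinned, and 12.6 with the added cluster. In S6W 29.1 stayed at 29.1 to 3 digits with doublets kept or the added cluster, beyond its narrow counting interval, and became 27.5 when thinned, and in C6W 25.7 became 24.7 when thinned. Each of these values lay outside the counting interval or count range of the reported value, and the cause was not tested.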
